A study of Mus musculus with 6 samples.

Results

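Transcripts of 9 complement genes were followed through mouse bone marrow and the macrophages grown from it. They were the rows of the gene count table named C1qa, C1qb, C1qc, C3, C3ar1, C5ar1, C4b, Cfb and Cfp, 9 of 55536 named genes, and all 9 were among the 14719 genes with a scaled count (CPM, the count relative to library size) of at least 1 in any library. C4b passed that limit through the marrow library alone. The mice were C57BL/6 at 8 weeks of age. The 6 groups were marrow cells with no culture (BM), macrophages after 7 days with M-CSF (M-BMDM), M-BMDM given IL6 for 3 h or for 24 h, macrophages after 7 days with GM-CSF (GM-BMDM), and GM-BMDM given IL6 for 3 h. The labels do not give the dose of IL6 or of the growth factors, and name no transgene or deletion. Each group had 1 library, so a difference between groups has no replicate check, and the intervals below cover counting error only. The labels do not say whether the libraries came from separate cultures or animals.

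Complement is a cascade of plasma proteins that tags microbes and dying cells for uptake. The classical pathway starts when C1q, a collagen-like molecule built from A, B and C chains, binds a target and leads to cleavage of C4 and C2. The alternative pathway uses C3, factor B and properdin, and amplifies C3 cleavage on surfaces. The small fragments C3a and C5a act through G protein-coupled receptors on myeloid cells, while the liver makes most circulating components and tissue macrophages are a known source of C1q.

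The genes lie in 6 places of the GRCm38 genome (GENCODE M21), all on the minus strand. C1qb (chromosome 4, 136880129 to 136886187), C1qc (136889804 to 136893065) and C1qa (136895917 to 136898803) sit side by side within 18.7 kb. C4b (chromosome 17, 34728380 to 34743882) and Cfb (chromosome 17, 34856374 to 34862518) share the MHC class III region. C3 is on chromosome 17 (57203970 to 57228136), C3ar1 on chromosome 6 (122847138 to 122856161), C5ar1 on chromosome 7 (16246743 to 16259540) and Cfp on the X chromosome (20925454 to 20931555). All are protein-coding. C4b has a neighbour with stretches of the same sequence, C4a. Of the 100-base windows of the C4b transcript, 16.5% occur unchanged in that of C4a. Reads could thus be split between C4b and C4a, and C4b values are uncertain for that reason. The annotated gene Gm20547 overlaps Cfb on the same strand, with at most 24 counts in any library.

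Promoter sequence was available for 6 of the 9 genes (RefSeq, GRCm38.p6), and the part upstream of both the RefSeq and the GENCODE start is shown for 5. C1qb (chr4:136886201-136886450) and C1qc (chr4:136893066-136893164) are shown as neighbours whose ratios between the cultures were nearly equal. C3 (chr17:57228137-57228386) is shown because it was lower after 24 h of IL6, and C3ar1 (chr6:122856162-122856407) and Cfp (chrX:20931556-20931805) because they stayed within 2-fold there. All are on the minus strand and written 5′ to 3′ as the gene is read. Capitals mark matches to GAGGAA, the core bound by PU.1, a myeloid factor, in C1qb and C1qc (TTCCTC is the other strand), and to TTGCNNAA, bound by C/EBP factors, in C3.
C1qb: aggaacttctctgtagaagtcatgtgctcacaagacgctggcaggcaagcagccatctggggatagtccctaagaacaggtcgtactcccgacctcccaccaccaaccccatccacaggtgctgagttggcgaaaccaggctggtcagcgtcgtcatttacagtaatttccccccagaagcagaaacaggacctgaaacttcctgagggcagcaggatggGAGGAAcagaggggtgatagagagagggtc
C1qc: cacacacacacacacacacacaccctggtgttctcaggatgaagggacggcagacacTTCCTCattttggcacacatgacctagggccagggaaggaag
C3: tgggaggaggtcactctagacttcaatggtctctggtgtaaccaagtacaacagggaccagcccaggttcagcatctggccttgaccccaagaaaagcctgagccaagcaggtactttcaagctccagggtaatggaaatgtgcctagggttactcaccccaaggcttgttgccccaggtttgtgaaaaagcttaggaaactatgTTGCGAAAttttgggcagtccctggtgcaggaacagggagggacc
C3ar1: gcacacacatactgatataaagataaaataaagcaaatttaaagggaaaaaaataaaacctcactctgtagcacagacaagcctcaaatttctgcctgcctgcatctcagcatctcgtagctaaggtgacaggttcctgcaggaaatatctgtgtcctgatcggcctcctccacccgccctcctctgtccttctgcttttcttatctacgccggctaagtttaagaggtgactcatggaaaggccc
Cfp: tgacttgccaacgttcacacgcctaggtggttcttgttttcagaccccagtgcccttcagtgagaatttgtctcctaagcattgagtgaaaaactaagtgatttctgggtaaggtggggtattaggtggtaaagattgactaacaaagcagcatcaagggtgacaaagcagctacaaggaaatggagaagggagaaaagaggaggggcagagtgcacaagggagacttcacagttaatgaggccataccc
The 3 motifs were searched on both strands in the 250 bases before each start. GAGGAA was present in 23.3% of all 32851 promoters of that length, TTGCNNAA in 9.56% and TTCNNNGAA, the letters bound by STAT factors, in 7.02%. The PU.1 match began 30 bases before the RefSeq start of C1qb, and the C/EBP match 45 bases before that of C3. In C1qc the PU.1 match began 193 bases before the RefSeq start (136892914), which differs from the GENCODE start (136893065). None of the 6 promoters held TTCNNNGAA. C5ar1, also lower after 24 h of IL6, held no TTGCNNAA, and Cfb, lower too, had no promoter sequence available. Matches and their absence describe these letters only.

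The libraries held between 18567482 and 24196082 counts. TMM scaling was used, which gives each library a size factor, taking most genes to be unchanged, and leaves differences in composition in place. Scaling by total counts instead would shift log2 ratios by between -0.33 and 0.18. The 10 macrophage markers summed to between 27267 and 51498 CPM in the cultures against 5784 in BM. Lyz2 gave most of each sum (5172 CPM in BM, 26029 with M-CSF and 44299 with GM-CSF, untreated). Each of the other markers was also above BM in every culture except Mertk, which had 11.3 CPM in BM, 7.68 in M-BMDM and 9.80 at 3 h of IL6. Summed markers of other marrow cells were higher in BM than in the cultures, with single genes as exceptions. The 10 neutrophil markers summed to 38076 CPM in BM, to between 10.7 and 11.8 in the M-CSF cultures and to between 532 and 574 in the GM-CSF cultures, where Mmp8 alone gave most of it (513 and 555), and Retnlg and Ly6g were at 0 in all cultures. The 8 erythroid markers summed to 81755 CPM in BM and at most 10.4 in any culture, the 8 B lineage markers to 792 and at most 0.920, and 10 stromal markers to 841 against 25.9 to 54.8. Of the stromal markers, Kitl (highest at 24 h of IL6, 40.7 CPM) and Pdgfra (3.04 in BM, 5.01 in GM-BMDM) were not highest in BM. The 8 dendritic cell markers summed to 1707 CPM in BM and 49.0 to 233 in the cultures, mostly Cd24a (1585 in BM, 115 with M-CSF and 170 with GM-CSF, untreated). Clec9a (6.46 CPM in BM, 15.7 in GM-BMDM) and Ccr7 (14.6 and 20.2) went the other way. The 6 eosinophil markers summed to 4356 in BM, at most 4.13 with M-CSF and 184 to 198 with GM-CSF, where Siglecf was above BM (59.2 CPM in GM-BMDM, 26.2 in BM). Comparisons with BM are therefore between a mixed tissue and a culture. In such bulk samples fewer cells of a type and less RNA per cell cannot be told apart. Socs3, the feedback inhibitor of IL6 signalling, stood at 102 CPM in the untreated M-CSF culture, 99.4 at 3 h and 7.60 at 24 h of IL6. With GM-CSF it stood at 142 CPM untreated and 141 at 3 h.

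**Figure D1:**
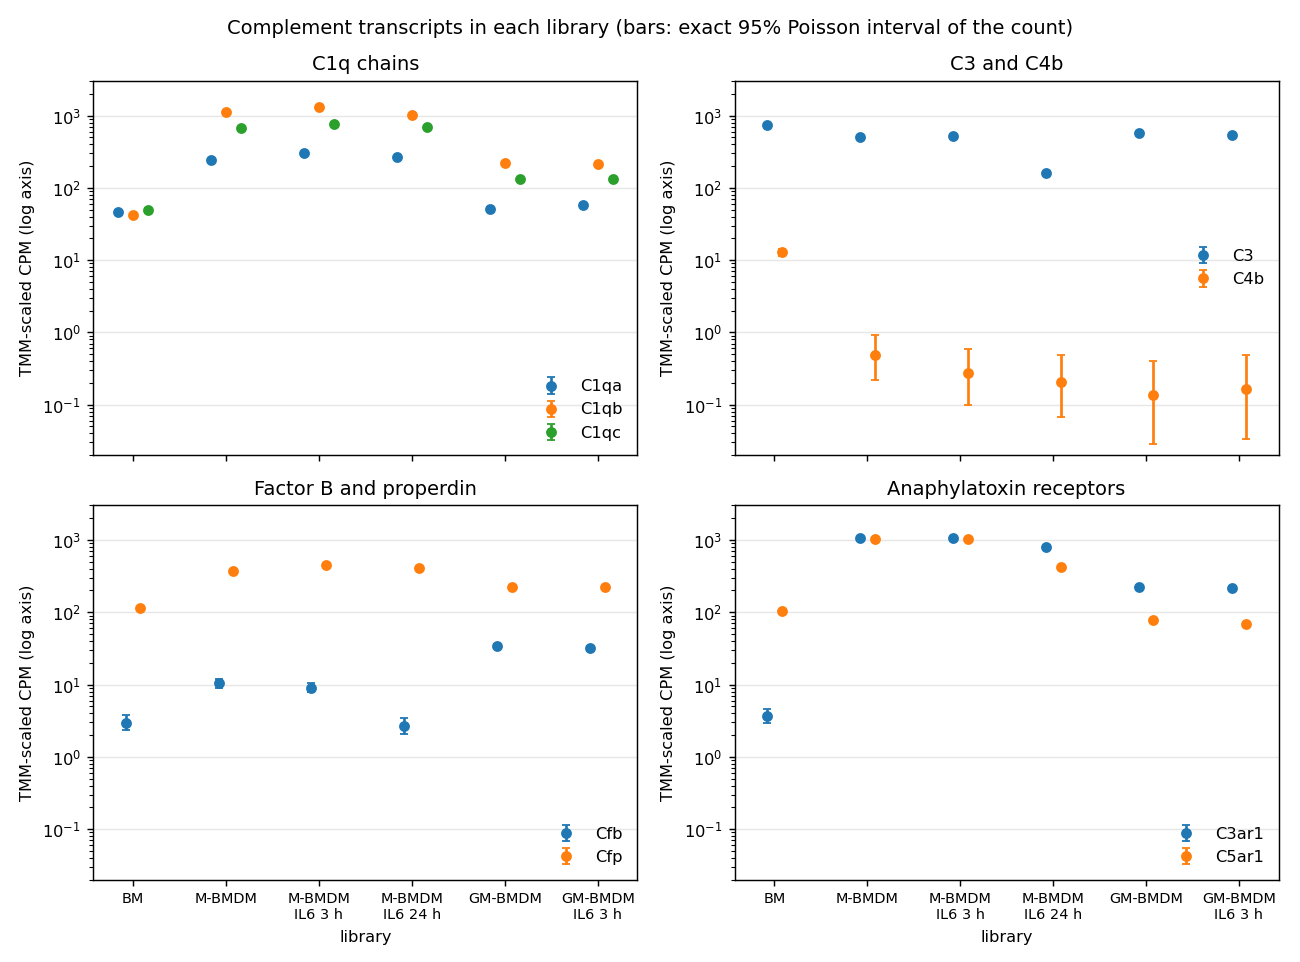
TMM-scaled CPM on a log axis (y) of the 9 genes in each of the 6 libraries (x), with exact 95% Poisson intervals of the counts. The C1q chains and both receptors are highest in the 3 M-CSF cultures, C3 is lowest after 24 h of IL6, and C4b is seen mainly in BM.

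The C1q chains were among the most abundant transcripts of the M-CSF cultures. C1qb, the B chain, had 41.4 CPM in BM, then 1120 (untreated), 1305 (3 h) and 1028 (24 h) with M-CSF, and 221 (untreated) and 214 (3 h) with GM-CSF. C1qc, the C chain, had 49.6, 667, 768, 688, 130 and 131 CPM in the same order. C1qa, the A chain, had 46.7 CPM in BM, 246, 306 and 263 in the M-CSF cultures, and 50.9 and 57.1 in the GM-CSF cultures. Every M-CSF library was thus above every GM-CSF library for each chain, and the GM-CSF libraries lay close to BM for C1qa alone. Per kb of transcript, C1qb ranked 41st among the 14719 genes in M-BMDM, 383rd in GM-BMDM and 1863rd in BM. The other chains ranked lower in M-BMDM, C1qc 113th and C1qa 303rd. The 3 chains together took 0.204% of the counts in M-BMDM, 0.0363% in GM-BMDM and 0.0156% in BM.

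The make-up of the 3 chains differed between marrow and the cultures. C1qa was 33.9% of the C1q counts in BM (exact binomial interval 32.3 to 35.5), and between 12.1% (11.8 to 12.4, M-BMDM) and 14.2% (13.4 to 15.0, GM-BMDM after 3 h) in the cultures. C1qb was 30.1% in BM (28.5 to 31.6) and between 52.0% and 55.1% in the cultures. C1qc held a near constant share, from 32.3% to 36.0% over the 6 libraries. With counts divided by the gene lengths in the file, C1qa was 36.2% in BM and between 13.0% and 15.2% in the cultures. The A and B chains thus differed in share between marrow and the cultures, while M-BMDM and GM-BMDM had like shares (12.1% and 12.6% C1qa, 55.1% and 55.0% C1qb).

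**Figure D2:**
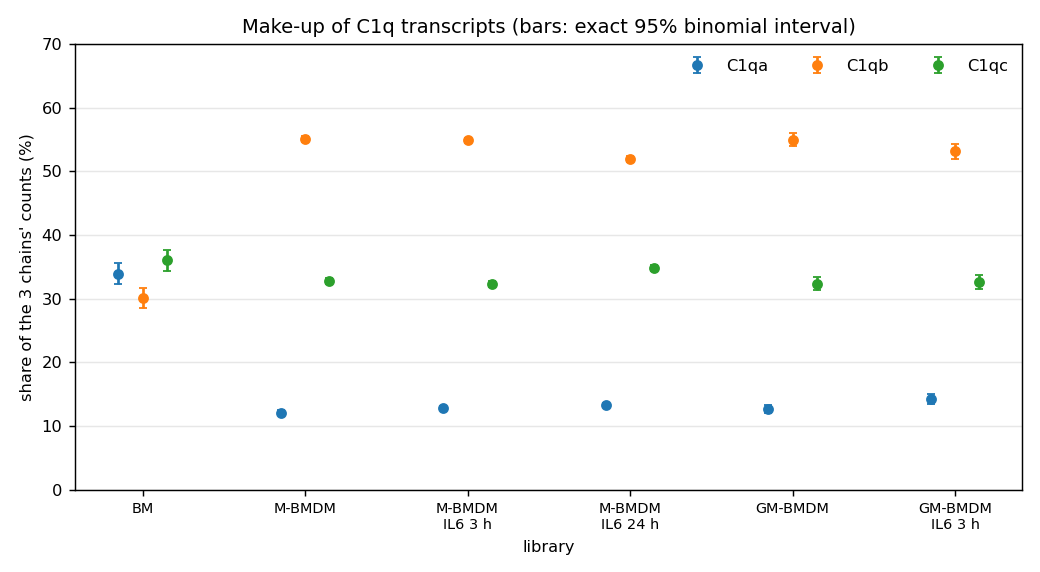
Share of each chain (y, %) in the summed counts of C1qa, C1qb and C1qc for each library (x), with exact 95% binomial intervals. In BM the 3 chains have like shares, from 30.1% to 36.0%, while C1qb is above 50% and C1qa below 15% in all 5 cultures.

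C3, the central component, was the member with the highest level per kb in BM and had its lowest level after 24 h of IL6. It had 750 CPM in BM, then 503 (untreated), 514 (3 h) and 159 (24 h) with M-CSF, and 571 (untreated) and 545 (3 h) with GM-CSF. The 4 cultures without IL6 or with 3 h of it lay between 503 and 571 CPM, and the 24 h library stood below all others. C4b, the classical pathway component cleaved by C1s, had 310 counts in BM (12.8 CPM) and from 3 to 9 counts in the cultures (0.138 to 0.483 CPM). The C4b intervals of the 5 cultures overlapped, so no order among them was detectable at this depth. The neighbour C4a had 7 to 19 counts in all libraries. The summed stromal, neutrophil, erythroid, B lineage, dendritic cell and eosinophil markers were likewise highest in BM, and their part in the C4b level was not tested.

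Cfb, which encodes factor B, the protease part of the alternative C3 convertase, was highest with GM-CSF. It had 2.96 CPM in BM, then 10.4 (untreated), 9.02 (3 h) and 2.70 (24 h) with M-CSF, and 34.4 (untreated) and 31.8 (3 h) with GM-CSF. BM and the 24 h library did not differ beyond their counting intervals (2.32 to 3.73 and 2.08 to 3.44 CPM). Cfp, which encodes properdin, the stabiliser of that convertase, was present in every library at 113, 374, 444, 404, 221 and 226 CPM in the same order. Its culture levels spanned only 2.02-fold, the narrowest range of the 9 genes.

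C3ar1, the receptor for C3a, had 3.70 CPM in BM, then 1067 (untreated), 1066 (3 h) and 794 (24 h) with M-CSF, and 222 (untreated) and 219 (3 h) with GM-CSF. C5ar1, the main receptor for C5a, had 104, 1043, 1037, 423, 77.7 and 68.8 CPM in that order. Both were thus at nearly equal CPM in M-BMDM with and without 3 h of IL6, where C5ar1, the shorter transcript, had 420 and 418 CPM per kb and C3ar1 248 in each. In marrow the receptors differed: C5ar1 was at 41.8 CPM per kb there and C3ar1 at 0.860. The culture range of C5ar1, 15.2-fold, was the widest of the 9 genes, ahead of Cfb at 12.7-fold.

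Growth with M-CSF was first compared with marrow. A gene was called higher or lower when the scaled ratio was at least 2-fold, its exact 95% interval did not contain 1, and 5 CPM or more were reached in the higher of the pair. In M-BMDM, 7 of the 9 genes were higher than in BM and 1 was lower, where 20.1% and 23.0% of the 11245 genes at 5 CPM or more were. The largest ratio was that of C3ar1, 288-fold (234 to 359). C1qb was 27.0-fold higher (25.4 to 28.8), C1qc 13.4-fold (12.7 to 14.3), C5ar1 10.1-fold (9.64 to 10.5), C1qa 5.27-fold (4.94 to 5.63), Cfb 3.50-fold (2.66 to 4.66) and Cfp 3.31-fold (3.17 to 3.46). C4b was 26.4-fold lower (13.7 to 58.2), or lower by a log2 ratio of -3.39 in place of -4.72 when counted together with C4a, and C3 stayed under 2-fold (log2 -0.58). The median log2 ratio of the 9 was 2.40, beside 0.03 over the genes at 5 CPM or more.

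In GM-BMDM, 4 of the 9 genes were called higher than in BM and 1 lower, against 19.8% and 22.3% of 11367 genes (2253 and 2532 genes, or 1692 and 3450 when scaled by total counts). This comparison uses the same BM library as the one above. C3ar1 was 60.0-fold higher (48.7 to 74.8), Cfb 11.6-fold (9.10 to 15.0), C1qb 5.35-fold (4.99 to 5.73) and C1qc 2.62-fold (2.45 to 2.81). C1qa was at 1.09-fold (1.00 to 1.18), a log2 ratio of 0.12 that became -0.21 with total counts, and Cfp at 1.95-fold (1.86 to 2.05), just under the limit. C5ar1 (log2 -0.42) and C3 (-0.39) had lower values in GM-BMDM without reaching 2-fold. C4b was lower by a log2 ratio of -6.53 (-8.82 to -4.97), or -3.81 together with C4a. The median was 0.96, beside -0.04 over the genes at 5 CPM or more.

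GM-CSF and M-CSF cultures were then compared with each other, to ask which growth factor goes with which complement transcripts. Both C1q and the receptors for C3a and C5a were higher with M-CSF, Cfb was higher with GM-CSF, and C3 differed by less than 2-fold. Without IL6, 5 of the 9 genes were called lower in GM-BMDM and 1 higher, against 8.64% and 10.8% of 10495 genes (907 and 1134 genes, or 1191 and 904 with total counts). Since C4b was below 5 CPM in every culture, it could not be called here or in the IL6 comparisons below. C5ar1 was 13.4-fold lower (12.8 to 14.1), C1qc 5.12-fold (4.91 to 5.33), C1qb 5.06-fold (4.90 to 5.22), C1qa 4.84-fold (4.53 to 5.17) and C3ar1 4.80-fold (4.66 to 4.96). Cfb was 3.31-fold higher (2.83 to 3.90). The 3 chains of C1q and C3ar1 thus differed by nearly the same factor. After 3 h of IL6 in both types, again 5 were called lower and 1 higher, against 8.06% and 10.6% of 10449 genes. C5ar1 was then 15.1-fold lower, the C1q chains between 5.35-fold (C1qa) and 6.11-fold (C1qb), C3ar1 4.87-fold, and Cfb 3.52-fold higher. Cfp was lower by a log2 ratio of -0.76 without IL6 and -0.98 after 3 h, and with total counts the second passed 2-fold. C3 had log2 ratios of 0.18 and 0.09, and the second turned to -0.02 with total counts.

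**Figure D3:**
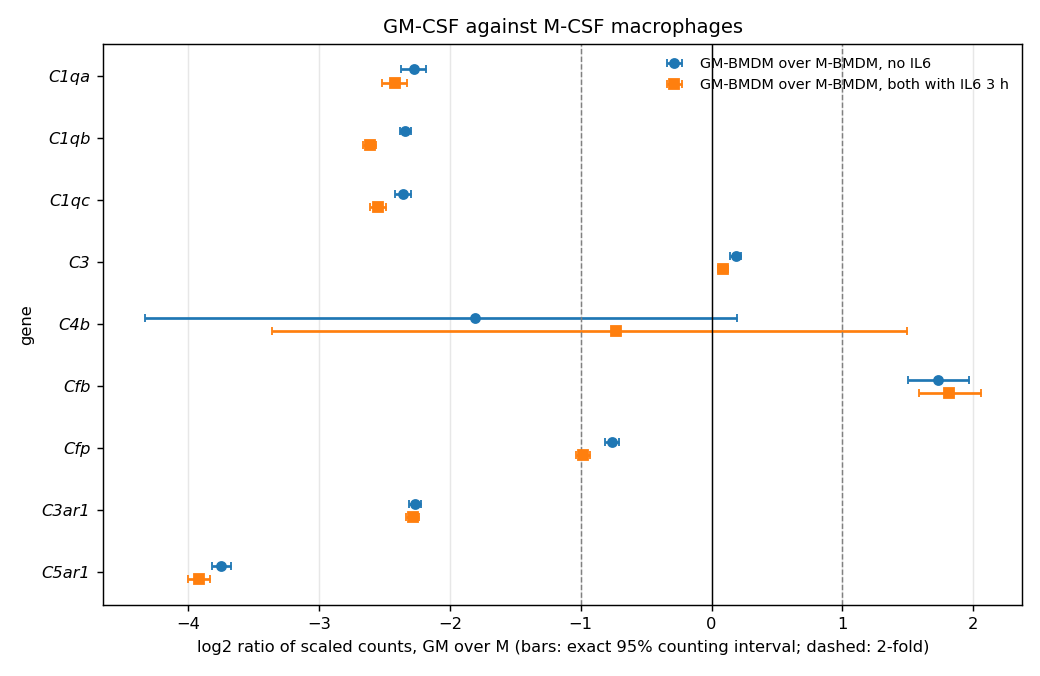
Log2 ratio of scaled counts in GM-BMDM over M-BMDM (x) for each gene (y), without IL6 (circles) and with both at 3 h of IL6 (squares), with exact 95% counting intervals and dashed lines at 2-fold. The C1q chains and C3ar1 sit between -2.26 and -2.61, C5ar1 at -3.75 and -3.91, and Cfb at 1.73 and 1.82, while the C4b intervals span 0.

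These 4 libraries allowed a test with edgeR's quasi-likelihood method, with terms for growth factor and for 3 h of IL6 and Benjamini-Hochberg adjustment over 14719 genes. Its 1 residual degree of freedom comes from how far the 2 types differ in their 3 h ratios, and all genes share 1 trend of spread (coefficient of variation 6.72%). Spread between cultures of a type was not measured, so these p-values may be too small. With GM-CSF, 6 of the 9 genes fell and 1 rose, where 27.5% of all genes fell and 28.6% rose. The fall was -3.83 on the log2 scale for C5ar1 (standard error 0.098), -2.47 for C1qb (0.092), -2.45 for C1qc (0.091), -2.35 for C1qa (0.089), -2.27 for C3ar1 (0.091) and -0.87 for Cfp (0.086, edgeR adjusted p = 3.5e-23, the largest of the 6). Cfb rose by 1.77 (0.121, edgeR adjusted p = 1.1e-46). The p-values of C3 (0.13, standard error 0.086, edgeR adjusted p = 0.180) and C4b (-1.28, 1.08, edgeR adjusted p = 0.327) missed the threshold, which does not show that they were equal. The 10 interferon-stimulated transcripts counted beside them summed to 681, 601 and 274 CPM in the M-CSF cultures (untreated, 3 h and 24 h), and to 148 and 142 with GM-CSF. Their part in any of these differences was not tested.

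IL6 for 3 h left all 9 genes below 2-fold in both types. Socs3, counted as a check of the IL6 response, did not rise at 3 h either. It went from 102 to 99.4 CPM with M-CSF and from 142 to 141 with GM-CSF, so this check showed no response at 3 h. In M-BMDM, 0 of 9 were called higher or lower, where 0.0906% and 0.272% of 9937 genes were, and in GM-BMDM again 0 of 9, against 0.0585% and 0.107% of 10255. The highest log2 ratios in M-BMDM were those of C1qa (0.31, 0.26 to 0.37), Cfp (0.25, 0.21 to 0.30), C1qb (0.22, 0.20 to 0.25) and C1qc (0.20, 0.17 to 0.24), all with counting intervals above 0. C3ar1 (-0.03 to 0.03) and C5ar1 (-0.04 to 0.02) had intervals that spanned 0. In GM-BMDM, C1qa had 0.17 (0.04 to 0.29) C5ar1 -0.18 (-0.28 to -0.07) and C3 -0.07 (-0.11 to -0.03), and the intervals of the other members spanned 0. In the edgeR fit, 0 of the 9 genes passed for 3 h of IL6, where 0.197% of all genes rose and 0.815% fell. One gene, C1qa, had an unadjusted p under 0.05 in that fit (log2 0.25, standard error 0.086, edgeR adjusted p = 0.202), and DESeq2 and limma-voom called 0 of the 9 as well.

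After 24 h of IL6, M-BMDM had less C3, Cfb and C5ar1 transcript, while the C1q chains and Cfp were between 0.918-fold and 1.08-fold of the untreated library. By the 2-fold rule 3 of the 9 genes were called lower and 0 higher, against 8.93% and 11.5% of 10313 genes. Cfb went from 10.4 to 2.70 CPM, 3.84-fold lower (2.89 to 5.17). C3 went from 503 to 159 CPM, 3.16-fold lower (3.05 to 3.28), and C5ar1 from 1043 to 423 CPM, 2.46-fold lower (2.41 to 2.53). C3ar1 was 1.34-fold lower (1.32 to 1.37), below the limit. C1qa was at 1.07-fold, C1qb at 0.918-fold, C1qc at 1.03-fold and Cfp at 1.08-fold of M-BMDM. Ratios this near 1 depend on the scaling: with total counts C1qb turned from a log2 ratio of -0.12 to 0.01, and with upper-quartile factors C1qc turned from 0.05 to -0.01. Socs3, the check of the IL6 response, did not rise at 24 h but went from 102 to 7.60 CPM. The 10 interferon-stimulated transcripts summed to 681 CPM untreated and 274 at 24 h. What part of the 24 h differences was due to IL6 was not tested.

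Set against the 3 h library instead, the same 3 genes were lower after 24 h: C3 3.23-fold (3.11 to 3.35), Cfb 3.34-fold (2.52 to 4.50) and C5ar1 2.45-fold (2.39 to 2.51), with 0 of 9 higher. Here 8.59% of 10274 genes were lower and 11.7% higher (883 and 1202 genes, or 685 and 1568 with total counts). Both comparisons use the same 24 h library, which has no partner, so no test of the 24 h values was made. In the 3 h library C3 (514 CPM), C3ar1 (1066) and C5ar1 (1037) had stood near their untreated levels (503, 1067 and 1043).

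**Figure D4:**
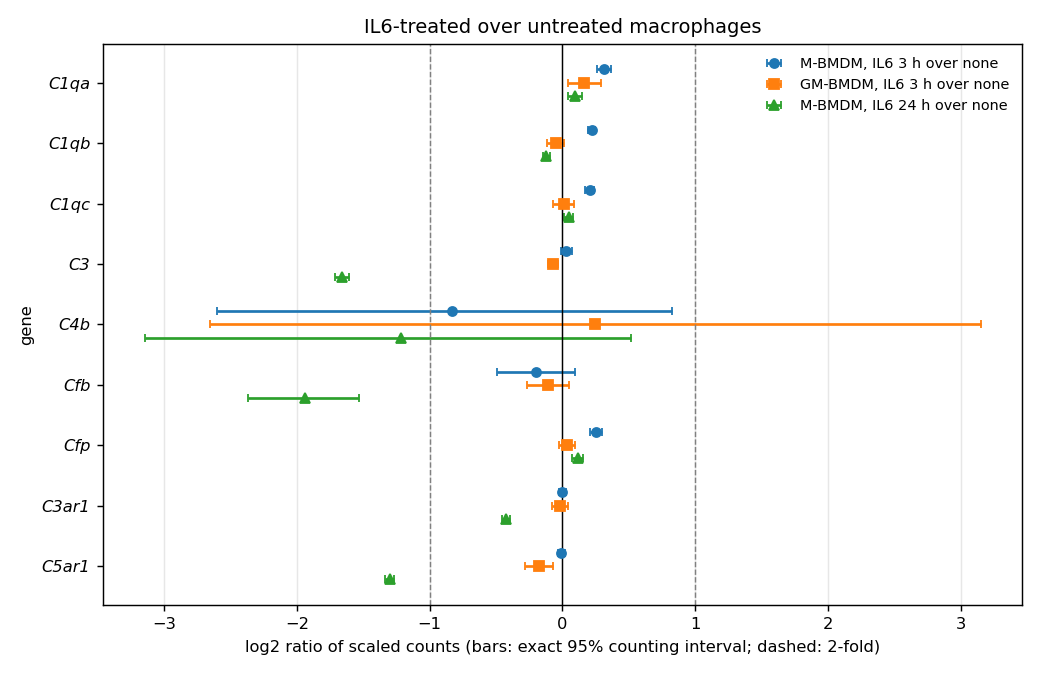
Log2 ratio of scaled counts with IL6 over without it (x) for each gene (y): M-BMDM at 3 h (circles), GM-BMDM at 3 h (squares) and M-BMDM at 24 h (triangles), with exact 95% counting intervals and dashed lines at 2-fold. C3, Cfb and C5ar1 lie beyond 2-fold lower at 24 h alone (-1.66, -1.94 and -1.30), the C1q chains and Cfp stay near 0, and the wide C4b intervals all span 0.

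Of 46 other genes of the cascade, 23 reached a CPM of 1 in any library. Of the 7 terminal pathway genes, which build the membrane attack complex, C8g alone reached it, with at most 39 counts in a library. In each pair below, the percentages over all genes cover those at 5 CPM or more in that pair. Some of the 23 were under that limit and could not be called, so the shares are not on a like base. Against BM, 3 of these 23 were higher and 6 lower in M-BMDM, beside 20.1% and 23.0% of all genes tested. Those with the largest ratios were Fcnb, Clu, Serping1 and Cr2. Fcnb, a ficolin of the lectin pathway made by neutrophils, had 227 CPM in BM and 1 count in M-BMDM (log2 -12.04, -17.35 to -9.57). Clu, the fluid-phase inhibitor clusterin, was at -7.76 (-10.04 to -6.21) and Serping1, the inhibitor of C1r and C1s, at -5.06. Cr2, the B cell receptor for C3d, was at least 38.2-fold lower by its interval (0 counts in M-BMDM). In GM-BMDM, 7 of the 23 were higher and 7 lower than in BM, beside 19.8% and 22.3% of all genes tested. The largest ratios were those of Fcnb (-9.95), Cr2 (at least 44.6-fold lower by its interval), Itgax (5.60) and Cd55, a surface brake on C3 convertases (-4.65). Fcnb and Cr2 reached 1 CPM in BM alone, with at most 0.273 and 0.109 CPM in the cultures. Against BM they could thus only be called lower.

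Between the cultures, GM-CSF went with 4 of the 23 higher and 1 lower, beside 10.8% and 8.64% of all genes tested. After 3 h of IL6 the counts were again 4 and 1, beside 10.6% and 8.06%. Itgax, the alpha chain of complement receptor 4, stood at 994 CPM with GM-CSF and 26.2 with M-CSF (log2 5.25, 5.12 to 5.38). Clu (6.43, 4.87 to 8.72) and C1ra, the C1r protease that C1q activates (2.13, 1.85 to 2.42), were higher too, although C1q itself was lower. In both 3 h comparisons 0 of the 23 were called, where all genes gave 0.0906% higher and 0.272% lower with M-CSF, and 0.0585% and 0.107% with GM-CSF. At 24 h against M-BMDM 1 of the 23 was higher, beside 11.5% of all genes, Lrp1, a large receptor that takes part in the uptake of C1q-tagged cells (1440 to 3007 CPM, log2 1.06), and 0 were lower, beside 8.93%.

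Genes whose pattern over the 6 libraries was nearest to the C1q chains and to C3 were listed by the Euclidean distance between centred log2 CPM values, among 9171 or more genes at a mean of 10 CPM. Nearest to the mean of the 3 chains were Gas6, a bridging ligand for dying cells (distance 0.44), Gm14221 (0.48), Ctla2b (0.50), Etv5 (0.58) and Itgav (0.59). C1qc itself was at 0.12, while C1qb (0.98) and C1qa (1.07) were farther off. Gas6 had 37.5 CPM in BM, 427, 444 and 473 in the M-CSF cultures and 73.0 and 69.5 in the GM-CSF cultures. Nearest to C3 were Slc22a4 (0.27), Kdm5b (0.34), Foxp4 (0.40), Clec10a (0.46) and Ublcp1 (0.49), each at its lowest in the 24 h library. Nearest to C5ar1 were Rtp4 (0.84), Ifit3 (0.94), Adam8 (0.97), Aif1 (1.00) and Apoe (1.09), all farther from it than the genes listed for C3 were from C3. These distances rest on 6 libraries, which share their depth and scaling, and are given as a description.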

How the data were processed

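The authors deposited 1 table of each expected count per gene, with gene lengths, for which the submitters' processing notes name HISAT2, StringTie, DESeq2 and the GRCm38 build, without versions. Of the values above 0, 24.7% to 27.7% were not whole. Settings and use of strand in counting were not stated. Counts were rounded. The 742 rows without a gene name (0.240% to 0.522% of counts) were left out.

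TMM factors came from edgeR 4.0.16 in R 4.3.3, over genes with a CPM of at least 1 in any library. Ratios of 2 libraries carry exact 95% Clopper-Pearson intervals, which show counting error alone, as amplified reads with no molecular identifier need not be separate molecules. The 4 libraries without BM and 24 h of IL6 entered edgeR's quasi-likelihood test across all genes, adjusted by Benjamini-Hochberg at 0.05; standard errors come from its F statistic. List medians use a prior count of 2. Steps were tested on simulated data.

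Members, the 46 further cascade genes and the marker lists were chosen with earlier results of these data known. Named were all members, up to 4 called cascade genes per comparison by size of ratio, the 5 genes nearest in pattern to the C1q chains, C3 and C5ar1, and C4a and Socs3. C8g and Gm20547 were named after their values were seen, and 1 called cascade gene is not reported here. Alternatives were DESeq2 (1.42.0) size factors and Wald test, total counts, upper-quartile factors, limma-voom (limma 3.58.1), other limits, all 6 libraries in the fit, and C4b with C4a.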

Additional observations from a re-analysis of the deposited data

Results flagged for a closer look

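For 3 genes the 3 h IL6 ratio was above 0 in one macrophage type and below 0 in the other; the difference was not tested, since each type had 1 treated and 1 untreated library. C1qb had a log2 ratio of 0.22 in M-BMDM and -0.05 in GM-BMDM, a difference (GM minus M) of -0.27 with a counting interval of -0.34 to -0.21. C3 had 0.03 and -0.07, a difference of -0.10 (-0.15 to -0.04), and with total counts both its values were below 0 (-0.02 and -0.06). C4b had -0.83 and 0.25, a difference of 1.08 (-1.67 to 3.83) that rests on at most 9 counts per library, and its GM-BMDM ratio turned to -0.34 when C4a was added. The counting intervals of the single ratios spanned 0 for C1qb in GM-BMDM, C3 in M-BMDM and C4b in both types. Ratios of the same sign in both types also differed. With TMM scaling the difference was -0.22 (-0.29 to -0.14) for Cfp and -0.19 (-0.28 to -0.11) for C1qc. It was -0.17 (-0.28 to -0.06) for C5ar1 and -0.15 (-0.28 to -0.01) for C1qa. The intervals of C3ar1 and Cfb spanned 0.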

How the results depend on the processing

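The counts of the 9 genes called in each pair, and in the edgeR fit, stayed within 1.5 times under every alternative run; for the 9 genes in the fit, no alternative changed a direction or a call. With upper-quartile factors Cfp passed 2-fold in GM-BMDM over BM (5 genes called higher in place of 4), and at a CPM minimum of 10 Cfb left the calls between 24 h and 3 h (2 lower in place of 3). Calls of the 46 other cascade genes moved more. With a fold minimum of 1.5 these were 3 lower with GM-CSF than with M-CSF (1 in the main analysis), 2 lower after 3 h of IL6 in both (1), 4 higher and 1 lower at 24 h against M-BMDM (1 and 0), and 3 higher and 2 lower at 24 h against 3 h (1 and 0). With a CPM minimum of 1 they were 10 higher with GM-CSF than with M-CSF (4), 9 higher and 2 lower after 3 h in both (4 and 1), and 2 lower in GM-BMDM after 3 h against none (0). Lrp1, the 1 gene higher at 24 h against 3 h, was lost with DESeq2 size factors and with upper-quartile factors (0 each). Over all genes, 29 rose and 120 fell with 3 h of IL6 in the fit; 17 rose with a CPM filter of 5, and DESeq2's Wald test had 0 rise and 4 fall. The cause was not tested, except that stricter or looser limits admit fewer or more genes by construction. Depth limits C4b, at 3 to 9 counts in the cultures. No paired analysis was possible because the labels give no replicate numbers and each group has 1 library.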
